A study of Homo sapiens with 8 samples.

Results

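The genes described here are TXNIP and a small set around it in glucose uptake and redox control: the arrestin-domain genes TXNIP, ARRDC3 and ARRDC4, the thioredoxin genes TXN, TXN2 and TXNRD1, and the glucose transporter genes SLC2A1 and SLC2A3. TXNIP was chosen by its lower intensity with miR-148b on these same arrays, and the others were listed for their known ties to it. All 8 listed genes were found, among 15971 genes with a probe, through 11 of 33446 probes, and the probe with the highest mean over the 8 arrays stood for each gene. The cells were MDA-MB-231, an established human breast cancer line of mesenchymal character, and their RNA was hybridised to 1-colour whole-genome arrays. One group of 4 arrays came from cells 48 h after transfection with a miR-148b precursor at 75 nM, and the other 4 from cells given a negative control, whose dose is not given in the labels. Both groups grew in the same high-glucose medium, labelled as 4.5 g/mL, with 1 mM pyruvate.

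The arrays are called biological replicates, but nothing says which cultures they came from, so the p-values measure the spread between these arrays. The titles also carry a code number and sometimes a plus mark, of unstated meaning. Arrays titled with code 1 were miR-148b replicates 1 and 2 beside control replicate 1. Code 2 was on miR-148b replicate 3 beside control replicates 2 and 3, and the remaining array of either group, replicate 4, had code 3. A plus mark was on miR-148b replicates 2 and 3 beside control replicate 3. Over 14825 genes with a value on every array, code 1 taken alone held 57.9% of the variance, the plus mark alone 19.5% and the treatment alone 12.4%. These shares overlap: both labels together held 77.4%, and 83.3% with the treatment added. Of the marker genes of the line, VIM read from 111883 to 185689 and CAV1 from 33767 to 42218. The mesenchymal regulator gene ZEB1 was dim, from 94.5 to 190.0. ESR1 stayed at or below 92.5 and CDH1 at or below 115, while the epithelial genes KRT8 and EPCAM were bright, from 16807 and from 2234 upward. The leukocyte gene PTPRC stayed at or below 17.4 and the fibroblast gene DCN at or below 25.9. Other genes of these cell types read higher: CD3E from 121.8 to 170.4, CD14 from 119.7 to 369.8 and LUM from 57.3 to 86.1. The macrophage gene CD68 read from 510.1 to 1008. Values are normalized intensities in arbitrary units, and dim and bright describe the signal of a probe, not an amount of RNA. In such bulk RNA, fewer cells of a type and less RNA per cell cannot be told apart.

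As background, TXNIP encodes an arrestin-domain protein that binds thioredoxin and holds back glucose uptake by drawing the transporter GLUT1, the product of SLC2A1, from the cell surface. Its transcription is a classic readout of glucose inside the cell: MondoA (MLXIP) or ChREBP (MLXIPL), paired with MLX, bind carbohydrate response elements in its promoter when glucose phosphates accumulate. ARRDC4, a close relative of TXNIP, is driven by the same factors. Thioredoxin, encoded by TXN, reduces disulfides in other proteins and is itself recharged by thioredoxin reductase, encoded by TXNRD1, while TXN2 encodes the mitochondrial thioredoxin.

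The sequences of the transfected microRNA and its relatives are shown because a microRNA pairs with messages mainly through its seed, bases 2 to 8 from the 5′ end, which stand in capitals. The 3 mature RNAs are from RefSeq, build GRCh38.p14, and share the seed CAGUGCA. That of miR-148b lies on the plus strand at chr12:54337278-54337299.
hsa-miR-148b-3p: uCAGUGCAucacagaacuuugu
hsa-miR-148a-3p: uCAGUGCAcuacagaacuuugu
hsa-miR-152-3p: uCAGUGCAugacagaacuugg

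The upstream sequence of TXNIP and ARRDC4 is shown because both genes are known to answer to glucose, and that of TXNRD1 because it is a known NRF2 target. Promoter windows, from 250 bases before to 50 after a RefSeq start on GRCh38.p14, were found for 6 of the 8 genes, not for TXN2 and SLC2A3. They were searched on both strands for 2 copies of CACGNG spaced by 5 bases, a written form of the carbohydrate response element, for the E-box CACGTG, and for TGACNNNGC, the core of the antioxidant response element that NRF2 binds. A copy of CACGNG is also an E-box where its N reads T. The spaced pairs occurred in 20 of 35116 windows, or 0.0570%. Among these was 1 of the 2 windows of TXNIP, with the match 88 to 72 bases before the start. No window found for the other genes listed below as known to answer to glucose held the pair. Its rarity is therefore not read as a result. The ARRDC4 window held no such pair, but 1 E-box, 210 to 205 bases before the start, as did 7.26% of all windows. The windows of ARRDC3, TXN, TXNRD1 and SLC2A1 held neither. Both windows of TXNRD1 held the antioxidant letters, as did 13.3% of all windows, and the match shown lies 99 to 91 bases before the start. A letter match is a description and no shown binding site. The capitals mark the match, and the stretches are chr1:145996631-145996687 on the minus strand, chr15:97960473-97960518 on the plus strand and chr12:104215660-104215708 on the plus strand.
TXNIP: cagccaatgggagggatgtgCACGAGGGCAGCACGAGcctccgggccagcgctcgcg
ARRDC4: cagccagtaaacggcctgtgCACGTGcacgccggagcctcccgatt
TXNRD1: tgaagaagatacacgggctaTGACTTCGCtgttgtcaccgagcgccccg

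With miR-148b, TXNIP and SLC2A1 both read lower and no other member separated the groups. ARRDC4, the relative that answers to the same factors, read higher on average, with overlap. The thioredoxin genes TXN, TXN2 and TXNRD1 lay within 0.21 of control on the log2 scale. These values come from the comparison that led to TXNIP, so they are given as a description with no test.

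TXNIP read 26758, 24136, 34129 and 23421 on control replicates 1 to 4, and 12923, 13731, 16546 and 15702 on miR-148b replicates 1 to 4. Every reading with miR-148b was under every control reading, and the highest was the plus-marked control replicate 3. Control averaged 27111 ± 4894 and miR-148b 14725 ± 1684 (SD, n = 4 each). On the log2 scale that is -0.87 (SE 0.17), or 0.547 of control. When code 1 and plus-mark terms were added it was -0.90 (SE 0.14). Between the replicates that match in code and plus mark, it was -1.05 for replicate 1, -1.04 for replicate 3 and -0.58 for replicate 4.

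**Figure D1:**
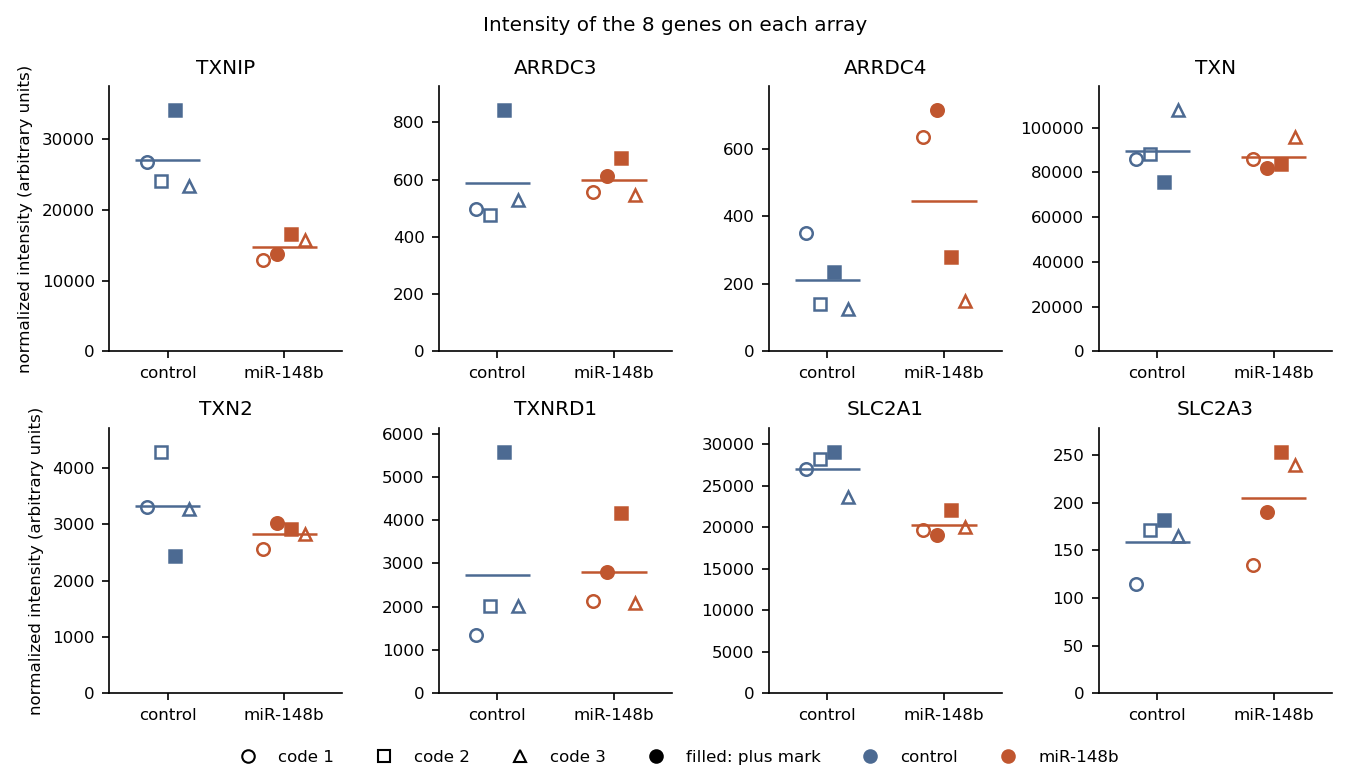
Normalized intensity in arbitrary units (y, from 0) of each of the 8 genes on the control and miR-148b arrays (x); each point is 1 array, the shape gives the code number, a filled point the plus mark, and the line the mean of 4 arrays. TXNIP and SLC2A1 are the members whose miR-148b points all lie below the control points, while the ARRDC4 points follow code 1.

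The ARRDC4 probe read 351, 141, 234 and 125 on control replicates 1 to 4 and 635, 715, 278 and 149.7 on miR-148b replicates 1 to 4. The groups overlapped, and within each group the code 1 arrays were highest. The log2 difference of 0.93 (SE 0.55) was 0.36 (SE 0.17) once both label terms were added, and it was 0.35 without the code 1 arrays. Within the matching replicates 1, 3 and 4 the differences were 0.86, 0.25 and 0.25, each above 0 where those of TXNIP were below it. A difference between the 2 genes was not tested.

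ARRDC3, a relative of TXNIP known to draw the beta-adrenergic receptor and integrin beta 4 into the cell, read 498, 478, 843 and 528 in control and 558, 612, 675 and 548 with miR-148b. The groups overlapped, control replicate 3 was highest, and the log2 difference was 0.06 (SE 0.21), or -0.02 (SE 0.14) with both terms. Its second probe was very dim, with no value above 29.4, and had a difference of -0.03.

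Of the thioredoxin genes, TXN read 85930.5, 88307, 75623 and 107852 in control and 85930.5, 82091, 83704 and 95763 with miR-148b. Code 3 was highest in both groups, which overlapped, and the equal first readings of the groups are ties of the normalized table. The log2 difference was -0.03 (SE 0.15), and that of a second probe of TXN was -0.06. TXN2 read 3301, 4278, 2441 and 3264 in control and 2556, 3013, 2922 and 2826 with miR-148b, with overlap and a difference of -0.21 (SE 0.19). TXNRD1 read 1351, 2008, 5571 and 2023 in control and 2125, 2812, 4169.7 and 2096 with miR-148b. Its 3 highest readings were the 3 plus-marked arrays, and the treatment difference was 0.19 (SE 0.44), or 0.05 (SE 0.21) with both terms.

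Of the transporters, SLC2A1, which encodes the basal transporter GLUT1, read 26957, 28263, 29042 and 23672 in control and 19642, 19057, 22109.7 and 20049 with miR-148b. Here too no miR-148b reading reached the lowest control reading. Control averaged 26984 ± 2369 and miR-148b 20214 ± 1328 (SD, n = 4 each). The log2 difference was -0.41 (SE 0.14), or 0.750 of control, and -0.42 (SE 0.11) with both terms. SLC2A3, which encodes the high-affinity transporter GLUT3, read 115, 171, 182 and 165 in control and 135, 191, 253 and 239 with miR-148b. Its groups overlapped, the code 1 array without the plus mark was lowest in each group, and the difference was 0.35 (SE 0.25), or 0.44 (SE 0.11) with both terms. A dimmer second probe of SLC2A3 was at 0.48.

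**Figure D2:**
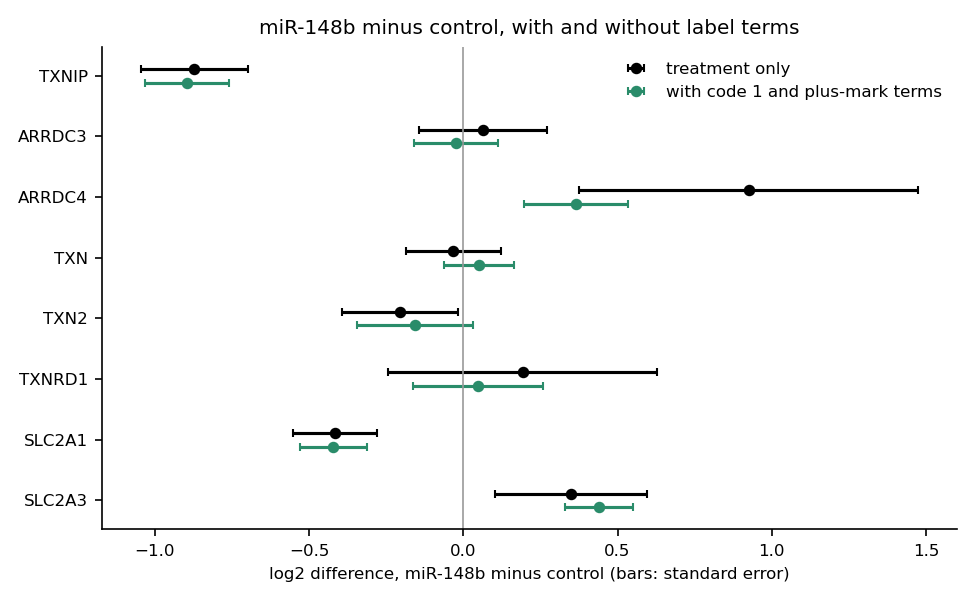
Log2 difference between miR-148b and control (x, bars are the standard error) for the 8 genes (y), in the fit with the treatment alone and in the fit that adds both label terms. TXNIP at -0.87 and -0.90 and SLC2A1 at -0.41 and -0.42 hardly moved between the fits, while ARRDC4 moved from 0.93 to 0.36.

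In limma's test over all genes, 0 of 15971 genes, 0%, passed an adjusted p of 0.05 for the treatment, and 858 genes, 5.37%, had an unadjusted p under 0.05. With both terms 0 of 15866 genes, 0%, passed, and 2321, 14.6%, had an unadjusted p under 0.05. Groups did not overlap for 2 of the 8 members, TXNIP and SLC2A1, both below control, as against 2.41% of 14825 genes measured on all 8 arrays. Another 1.59% of genes lay above control without overlap, 4% in either direction. As TXNIP was chosen for this reading, nothing is read from that count. TXNIP lay between -0.94 and -0.73 over 17 alternatives of the treatment fit and SLC2A1 between -0.48 and -0.35. Over 16 alternatives ARRDC4 lay between 0.35 and 1.36 and SLC2A3 between 0.20 and 0.54, each with 1 sign throughout.

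Across the 8 arrays, SLC2A1 was among the genes whose log2 values were most like those of TXNIP. Its Pearson correlation of 0.95 ranked 6 among 7977 genes above the median level with a value on every array. The 5 ahead of it were TEX30 (0.98), CUL9, a cullin family gene (0.97), ATP11A, a phospholipid flippase (0.97), RAB14, a GTPase of endosome transport (0.96), and TM7SF2, a sterol reductase (0.95). The 8 points fall into the 2 treatment groups and share the normalization, so these values include the difference between the groups. After each group's mean was taken off, the genes most like TXNIP were TNFSF15, a cytokine of the TNF family (0.95), PPP1R9B (0.94), TAF1B and HMGN2 (0.93 each) and STX12, an endosomal syntaxin (0.93). By that measure SLC2A1 was at 0.70 and ranked 485, TXNRD1 was at 0.73 and ranked 376, TXN was at -0.57 and TXN2 at -0.58. ARRDC3, ARRDC4 and SLC2A3 lay below the median level and were no candidates.

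**Figure D3:**
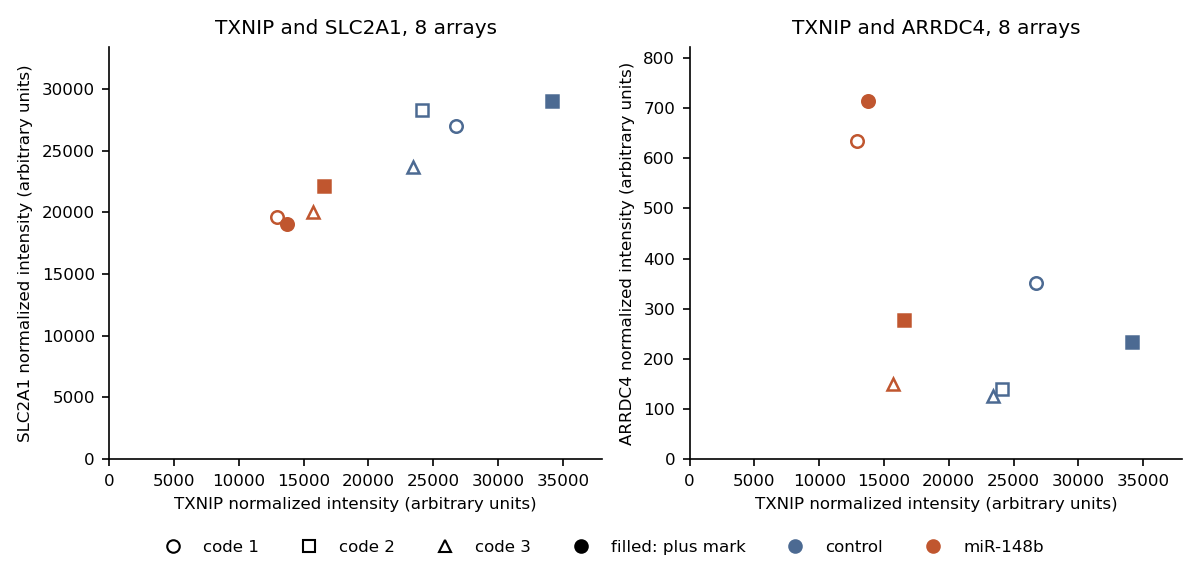
Normalized intensity of SLC2A1 (left, y) and ARRDC4 (right, y) against that of TXNIP (x) on each of the 8 arrays, all axes linear from 0 in arbitrary units, with shape for the code number and fill for the plus mark. SLC2A1 is low where TXNIP is low, from 19057 to 22109.7 on the miR-148b arrays, while the highest ARRDC4 readings, 635 and 715, come from the 2 miR-148b arrays of code 1.

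TXNIP was chosen by the treatment comparison and not by the code number or the plus mark, although earlier results of these data were known when the genes were listed. In the fit with terms for treatment, code 1 and plus mark, ARRDC4 was higher on code 1 arrays and SLC2A3 lower, and ARRDC4 and TXNRD1 were higher on plus-marked arrays. TXNIP passed in neither. For code 1, 36.3% of 15866 genes passed an adjusted p of 0.05, 17.4% higher and 18.9% lower, and 2 of 8 members passed, no more than the background. For the plus mark 13.6% passed, 5.88% higher and 7.68% lower.

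ARRDC4 read 567 ± 191 on the 3 code 1 arrays and 186 ± 66.8 on the 5 others (SD). Every code 1 array lay above every other array, as for 15.8% of genes. The log2 difference was 1.56 (SE 0.17), 2.96-fold, with a limma adjusted p of 0.000859. It stayed past the threshold in 12 of 12 alternatives, with differences from 1.33 to 1.72. TXNIP on the same arrays had a code 1 difference of -0.13 (SE 0.14, limma adjusted p = 0.513).

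SLC2A3 read 147 ± 39.3 on the code 1 arrays and 202 ± 41.0 on the others (SD, n = 3 and 5), with overlap. Its log2 difference was -0.58 (SE 0.11, limma adjusted p = 0.00835), and it lost its call without miR-148b replicate 4, at -0.51 (limma adjusted p = 0.0604). SLC2A1 did not pass, at -0.06 (SE 0.11, limma adjusted p = 0.720). SLC2A14, whose sequence is nearly the same as that of SLC2A3 so that probes may not tell them apart, was at -0.58 (limma adjusted p = 0.00681).

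TXNRD1 read 4184 ± 1380 on the plus-marked arrays and 1921 ± 322 on the others (SD, n = 3 and 5; the lowest of the first was 2812 and the highest of the second 2125). The plus-marked arrays lay above all others, as for 7.49% of genes. The log2 difference was 1.04 (SE 0.21), 2.06-fold, with a limma adjusted p of 0.0284. The call held without control replicate 1 or miR-148b replicate 1 and was lost without any other single array, with adjusted p up to 0.139. Without control replicate 3, the array with the highest TXNRD1, the difference was 0.70.

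ARRDC4 had a plus-mark difference of 0.68 (SE 0.17, limma adjusted p = 0.0473), which kept its call in 2 of 12 alternatives, a pseudocount of 50 and the omission of miR-148b replicate 1. Of the arrays left out in turn, each of the other 7 ended the call, with adjusted p up to 0.222. Over all 12 alternatives the limma adjusted p reached 0.770. ARRDC3 was above all other arrays on the plus-marked ones, at 710.1 ± 119 against 522 ± 33.8 (SD, n = 3 and 5), and TXN below them all, but neither passed (differences of 0.43 and -0.22, limma adjusted p = 0.0801 and 0.217). Of all genes, 8.63% lay below without overlap on the plus-marked arrays. TXNIP was at 0.23 (SE 0.14, limma adjusted p = 0.283).

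**Figure D4:**
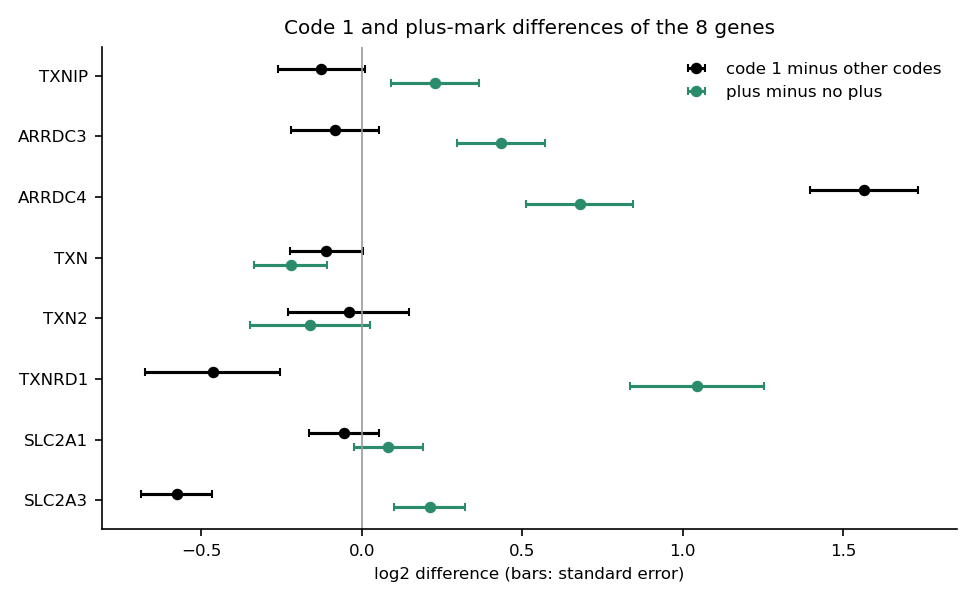
Log2 differences between code 1 and the other codes and between plus-marked and unmarked arrays (x, bars are the standard error) for the 8 genes (y), in the fit with treatment, code 1 and plus-mark terms. ARRDC4 stands out for code 1 at 1.56 and TXNRD1 for the plus mark at 1.04, where TXNIP is at -0.13 and 0.23.

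A list of 15 genes known to answer to glucose, the MLX factors included, all with a probe, had 0 members past the threshold for the treatment. With the treatment alone 8 of the 15 read above control and 7 below, with a median of 0.002 beside -0.03 over all genes. With both terms 10 of the 15 read above control and 5 below, TXNIP among the latter, with a median of 0.10 beside -0.02 over all genes. In that fit 7417 of 15866 genes in all read above control. Of the factors that sense glucose, MLXIP was at -0.10 (SE 0.18), its partner MLX at -0.15 (SE 0.14) and MLXIPL at -0.28 (SE 0.11). KLF10, a glucose-induced repressor, was at 0.13 (SE 0.09). The dim PKLR, which encodes the liver pyruvate kinase, was at 0.47 (SE 0.09), or 0.01 (SE 0.54) with the treatment alone. HK2, the hexokinase that makes the glucose phosphate these factors sense, was at 0.20 (SE 0.15).

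In this list 3 of 15 genes were called higher and 2 lower on code 1 arrays, close to the shares over all genes of 17.4% and 18.9%. HK2 rose on code 1 (0.67, limma adjusted p = 0.0166), with readings of 10922, 15504 and 17924 on code 1 arrays and from 6327 to 12821 on the others. SCD, the stearoyl-CoA desaturase, rose as well (0.89, limma adjusted p = 0.0387), and ARRDC4 was the third. ME1, the malic enzyme, fell (-0.86, limma adjusted p = 0.00175), and so did ELOVL6, a fatty acid elongase (-0.56, 0.0147). On the plus-marked arrays 1 of the 15, ARRDC4, was called higher and 2 were called lower, as against 5.88% and 7.68% of all genes. PKLR fell on these arrays (-1.63, limma adjusted p = 0.00253), as did MLXIPL (-1.10, 0.00673). PKLR read 12.4, 14.0 and 17.4 there, near the low end of the values, so the size of its difference is not reliable. MLXIPL was at 1229, 839 and 1203 on the plus-marked arrays and from 1745 to 2878 on the others.

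**Figure D5:**
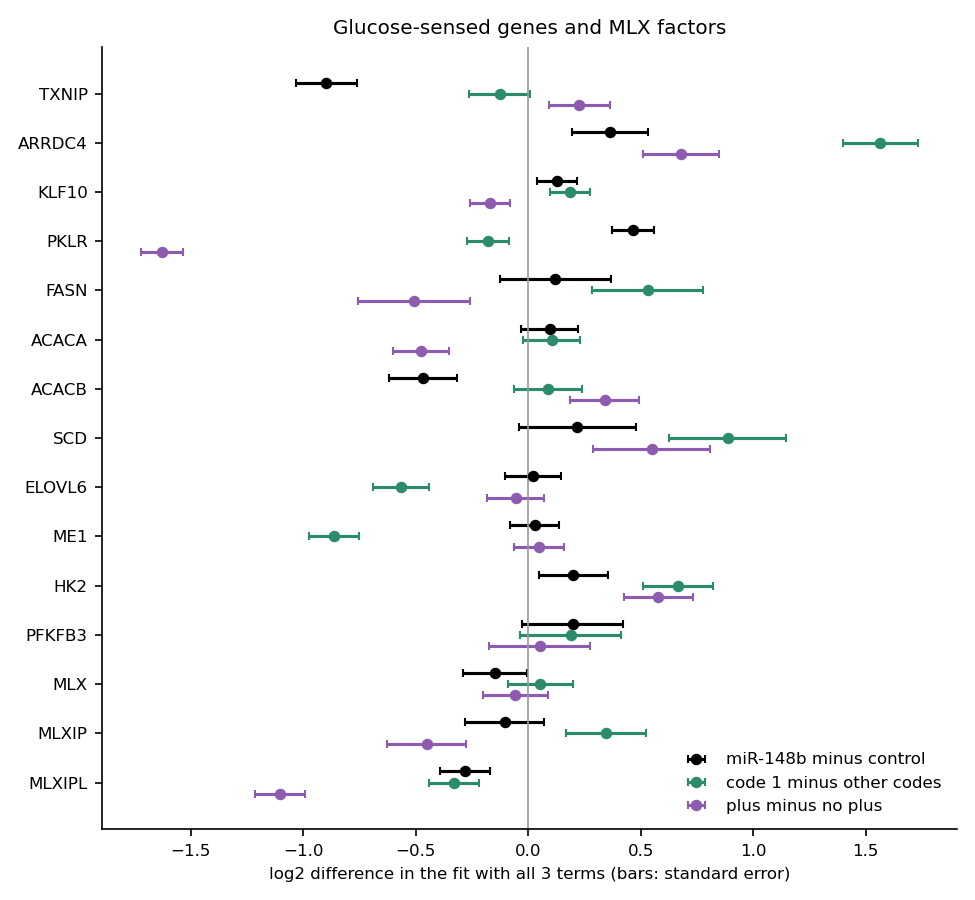
Log2 differences (x, bars are the standard error) of 15 glucose-sensed genes and MLX factors (y) for the treatment, code 1 and the plus mark, in 1 fit with all 3 terms. TXNIP holds the lowest treatment difference at -0.90, ARRDC4 the highest code 1 difference at 1.56 and PKLR the lowest plus-mark difference at -1.63. PKLR is dim, so the size of its difference is not reliable.

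Among the arrestins and the NEDD4-type ubiquitin ligases that bind them, 11 of 13 had a probe and 0 passed for the treatment, with a median of 0.02 with both terms. ARRDC2 was at -0.35 (SE 0.14) for the treatment with both terms, and at -0.19 (SE 0.41) with the treatment alone. It rose on code 1 by 1.04 (limma adjusted p = 0.00227), as ARRDC4 did. The ligase gene NEDD4L rose on code 1 arrays (0.68, limma adjusted p = 0.00307) and on plus-marked ones (0.53, 0.0247), and WWP1 fell on code 1 (-0.73, 0.00227). For code 1, 3 of the 11 were called higher and 2 lower, and for the plus mark 2 were called higher, ARRDC4 and NEDD4L. Over all genes 17.4% were called higher and 18.9% lower for code 1, and 5.88% higher for the plus mark.

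In the wider thioredoxin and glutaredoxin system 28 of 29 genes had a probe and 0 passed for the treatment, with a median of -0.01 with both terms. In that fit GLRX5, a mitochondrial glutaredoxin of iron-sulfur cluster assembly, was at -0.49 (SE 0.09) and GLRX2 at 0.32 (SE 0.10). With the treatment alone they were at -0.52 (SE 0.24) and 0.30 (SE 0.19). On the plus-marked arrays 3 genes were called higher and 0 lower, as against 5.88% and 7.68% of all genes. In this list 23 of 28 read higher, as did 8789 of 15866 genes in all, beside a median of 0.21 for the list and 0.05 for all genes. The 3 called genes were TXNRD1, GSR, the glutathione reductase, at 0.55 (limma adjusted p = 0.0456) and GLRX5 at 0.36 (0.0479). For code 1, 4 of the 28 were called higher and 8 lower, as against 17.4% and 18.9% of all genes. The methionine sulfoxide reductase gene MSRB2 fell (-1.38, limma adjusted p = 0.000262), as did NXN, which encodes nucleoredoxin (-1.63, 0.00678). TXNDC12, a thioredoxin-like protein of the endoplasmic reticulum, rose by 1.08 (limma adjusted p = 0.00138) and MAP3K5, the kinase ASK1 that thioredoxin holds inactive, by 0.81 (0.00101).

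Of 18 target genes of NRF2, the factor that induces TXN and TXNRD1 under oxidative stress, 16 had a probe. For the treatment 0 passed. With the treatment alone 14 of the 16 read below control, with a median of -0.22 beside -0.03 over all genes. With both terms 10 of the 16 did, with a median of -0.06 beside -0.02. In that fit SLC7A11, the cystine transporter, was at -0.47 (SE 0.13) and NQO1, a quinone reductase, at -0.28 (SE 0.10). With the treatment alone these 2 genes were at -0.32 (SE 0.20) and -0.25 (SE 0.17). On code 1 arrays 8 were called lower and 1 higher, with a median of -0.41 beside -0.04 for all genes, of which 18.9% were called lower and 17.4% higher. The heme oxygenase gene HMOX1 fell (-1.58, limma adjusted p = 0.000749), and GCLM, a subunit of the enzyme that starts glutathione synthesis, was at -1.07 (0.000594). OSGIN1 was at -1.04 (limma adjusted p = 0.00546) and the ferritin gene FTL at -0.98 (0.00134). On plus-marked arrays TXNRD1 alone passed, 1 of 16 beside 13.6% of all genes, and GCLC was at 0.61 (limma adjusted p = 0.0717). TXN and TXNRD1 themselves did not pass for code 1, at -0.11 and -0.46 (limma adjusted p = 0.490 and 0.134).

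Of 16 listed genes of the SLC2A and SLC5A transporter families 15 had a probe, and 0 passed for the treatment. With the treatment alone 11 of the 15 read below control, with a median of -0.34 beside -0.03 over all genes. With both terms 8 of the 15 did, with a median of -0.01 beside -0.02. SLC2A14 had the largest treatment difference with both terms, at 0.71 (SE 0.10, limma adjusted p = 0.158), the same direction as SLC2A3. As said above, probes may not tell these 2 genes apart. The SLC2A14 probe read 603, 767, 898 and 805 in control and 896, 900.1, 1418 and 1466 with miR-148b. Its lowest miR-148b array lay just under the highest control array. For code 1, 5 of the 15 were called lower and 1 higher, as against 18.9% and 17.4% of all genes. On those arrays 13 of the 15 read lower, as did 8487 of 15866 genes in all. The median was -0.36 for the list and -0.04 for all genes. SLC2A8, an intracellular transporter, fell (-1.14, limma adjusted p = 0.00124), as did SLC2A6 (-0.67, 0.0271) and the renal sodium-glucose transporter gene SLC5A2 (-0.62, 0.0125), while SLC2A12 rose by 0.88 (0.00349). On plus-marked arrays 4 were called lower: the fructose transporter gene SLC2A5 (-1.75, limma adjusted p = 0.00531), SLC2A13 (-0.69, 0.0443), SLC5A2 (-0.66, 0.0289) and SLC5A1, as against 7.68% of all genes. SLC5A1 is dim and had a value on only 1 of the 3 plus-marked arrays, 10.7 on miR-148b replicate 3, so its call compares a single array and is not used.

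Of 30 genes of glucose phosphorylation and glycolysis 27 had a probe and 0 passed for the treatment, with 18 below control and a median of -0.07 with both terms. With both terms HKDC1, a hexokinase relative, was at -0.56 (SE 0.15), but with the treatment alone at -1.44 (SE 1.39). ALDOA, an aldolase, was at -0.32 (SE 0.14) with both terms and at -0.37 (SE 0.17) with the treatment alone. The code contrast was steep for HKDC1, which read 21.0, 17.3 and 23.9 on the code 1 arrays and from 234 to 572 on the others, a log2 difference of -4.14 (limma adjusted p = 1.68e-05). Its code 1 readings lie near the low end of the table, where the size of a log2 difference is not reliable. On plus-marked arrays HKDC1 was the only one of these genes called higher (0.60, limma adjusted p = 0.0482). Another 2 were called lower there, as against 5.88% of all genes called higher and 7.68% lower. For code 1, 4 were called higher, among them PDK4, a pyruvate dehydrogenase kinase (1.46, 0.0219), and ALDOC (0.87, 0.00680). Another 3 were called lower, among them the dim HK3. These 7 of 27 lie below the share of all genes called for code 1, 36.3%. On plus-marked arrays PFKL, the liver phosphofructokinase, fell (-1.60, limma adjusted p = 0.0226), as did HK3 (-1.37, 0.00673). The HK3 readings there, 13.1, 9.0 and 16.6, also lie near the low end.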

How the data were processed

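Per the labels, spots of the 1-colour arrays were quantified in Agilent's Feature Extraction, version 10.5.1.1. The authors deposited probe intensity values on a linear scale for 33446 probes and 8 arrays. How background was treated and how arrays were normalized or filtered is not given in the sources used here. All 8 arrays share their highest value, 243058, while their medians run from 370.2 to 404. Different probes on different arrays also share values, as 2472.1336 for ME1 on control replicate 3 and MLXIPL on control replicate 1. Such shared values arise when arrays are brought to a common distribution, and a shift of all genes would then not show. Why the medians differ is not given. The table has no detection flag. Log2 was taken with a pseudocount of 0. Between 81 and 1038 cells per array were empty and stayed so, none of them in the 8 genes. Gene names came from the platform annotation at GEO and were brought up to date by gene number with RefSeq (GRCh38.p14): 24790 had 1 gene, 27 several and 8629 none.

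Differences were fitted over all genes by the moderated linear models of limma (version 3.58.1, R version 4.3.3; two-sided tests, Benjamini-Hochberg adjustment over all genes, threshold 0.05), with the treatment alone or with treatment, code 1 and plus-mark terms, and tested on simulated data. The number of arrays limits the precision. Named were the 8 genes, per list the 2 genes with the smallest p and up to 4 past the threshold with the largest difference in each term, and the 5 genes most like TXNIP; others named were chosen after their values were seen. The members and lists were chosen with earlier results of these data known. Alternatives were other probe summaries, centring, a filter on dim genes, a pseudocount of 50, blocks and single arrays left out.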

Additional observations from a re-analysis of the deposited data

How the results depend on the processing

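For the treatment alone, 0 genes passed an adjusted p of 0.05 in limma under any alternative, single arrays left out included (0 to 0), and 0 passed the series' thresholds of 1.5-fold and 16%. With the replicate block 0 genes passed as well, 1379 had an unadjusted p under 0.05, and TXNIP stayed at -0.87. The replicate numbers did not pair all arrays: over 14825 genes, deviations from the group means correlated at 0.71, 0.59 and 0.71 for replicates 1, 3 and 4, which share code and plus mark, and at -0.55 for replicate 2, which does not. With code 1 and plus-mark terms, 0 genes became 36 without the dimmest 50% of genes and 60 at the series' thresholds, and stayed at 0 without single arrays. The 5760 genes called for code 1 became 3680 without the dimmest 50%, which tests fewer genes, and ranged from 3349 to 6053 without single arrays. The 2152 called for the plus mark became 1419 without the dimmest 50% and 482 without a code 1 term, and ranged from 109 to 3725 without single arrays. The cause was not tested. By Spearman correlation 0 of the 5 genes most like TXNIP stayed among the first 5, with SLC2A1 among 7 genes at 0.95. SLC2A3 gained a plus-mark call with the mean of its probes (0.63, adjusted p = 0.0187), ARRDC3 without miR-148b replicate 1 (0.52, 0.0455), and TXNRD1 a code 1 call without that array (-0.67, 0.0117). ARRDC3, ARRDC4 and SLC2A3 are dim, and their fold changes are less reliable.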
